A study of Mus musculus with 12 samples.

Results

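The Ikaros family is a set of 5 zinc finger transcription factor genes: Ikzf1 (Ikaros), Ikzf2 (Helios), Ikzf3 (Aiolos), Ikzf4 (Eos) and Ikzf5 (Pegasus). Its members were taken by gene symbol, and all 5 were found among the 49997 genes of the study, a bulk RNA-seq of mouse thymocytes. The 12 libraries fell into 4 groups of 3: Satb1 KO CD4 thymocytes (CD4 KO), WT CD4 thymocytes (CD4 WT), Satb1 KO DP thymocytes (DP KO) and WT DP thymocytes (DP WT). Satb1 encodes a DNA-binding chromatin organiser of T cells. DP thymocytes have CD4 and CD8 on their surface, and CD4 thymocytes are a later stage. All 4 groups, WT included, came from primary thymus and are labelled as tamoxifen-treated, with the KO described as tamoxifen-induced. The sources used here do not give the Cre line or the cells it acts in, the deleted part of Satb1, the age and number of mice, or the sort gates. No label ties each library to a mouse of its own, so the p-values here speak only for variation among the libraries sequenced, which may be technical.

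Ikaros family proteins bind DNA through a block of zinc fingers near the N terminus and pair with themselves and with each other through a second block at the C terminus. They recruit chromatin complexes, above all the NuRD complex, to repress or activate genes of lymphocytes. In the thymus Ikaros and Aiolos are the members known from most developing T cells, Helios is known from cells that receive strong T cell receptor signals and from regulatory T cells, and Eos acts with Foxp3 in regulatory T cells. Pegasus is the most divergent member and is known from many tissues.

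The N-terminal DNA-binding finger that aligns across the family is shown first because it is the part by which 4 members can recognise the same core motif, and because it shows how far the genes differ in sequence. The coding bases below are from GENCODE transcripts on mm10, 5′ to 3′ on the coding strand, with the codons of the 2 cysteines and the 2 histidines that hold the zinc ion in capitals. In Ikzf1 to Ikzf4 it is the second finger found by the search, and in Ikzf5 it is the best match among 4 fingers found. Each lies within 1 coding exon.
Ikzf1 at chr11:11754024-11754086, plus strand: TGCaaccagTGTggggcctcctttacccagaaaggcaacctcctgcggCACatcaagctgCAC
Ikzf2 at chr1:69570581-69570643, minus strand: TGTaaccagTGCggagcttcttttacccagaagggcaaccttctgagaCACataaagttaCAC
Ikzf3 at chr11:98488940-98489002, minus strand: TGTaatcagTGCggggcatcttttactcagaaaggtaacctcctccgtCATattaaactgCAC
Ikzf4 at chr10:128640229-128640291, minus strand: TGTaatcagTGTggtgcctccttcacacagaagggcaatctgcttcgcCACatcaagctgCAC
Ikzf5 at chr7:131393759-131393821, minus strand: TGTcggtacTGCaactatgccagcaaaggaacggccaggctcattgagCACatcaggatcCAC
Of these 63 bases, 12 differed from Ikzf1 in Ikzf2, 12 in Ikzf3, 10 in Ikzf4 and 34 in Ikzf5. Sequences of whole transcripts were compared for 1 transcript per member, the one with the longest reading frame. The longest identical stretch between any pair of these ran from 11 bases (Ikzf2 and Ikzf5) to 26 bases (Ikzf1 and Ikzf3). That is shorter than the 150-base reads named in the labels. Exonic bases outside these transcripts were not compared.

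The genes lie apart from each other in mm10. Ikzf1 spans chr11:11684962-11772930 on the plus strand with 6392 exonic bases, and Ikzf3 spans chr11:98464610-98546031 on the minus strand with 11832 exonic bases. Ikzf2 spans chr1:69531207-69687351, minus strand, with 10787 exonic bases. Ikzf4 spans chr10:128630839-128669671, minus strand, with 7933 exonic bases, and Ikzf5 spans chr7:131388649-131410518, minus strand, with 4578 exonic bases.

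Libraries held between 22790504 and 62422640 gene counts. Satb1, the targeted gene, averaged 1498 ± 40.7 CPM (counts scaled to a common library size) in CD4 KO and 3271 ± 258 CPM in CD4 WT, and 2608 ± 231 CPM in DP KO against 3862 ± 28.2 CPM in DP WT (SD, n = 3 each). It was lower in KO at both stages, with a log2 fold change of -1.13 ± 0.08 in CD4 (SE; adjusted p = 7.89e-06) and -0.56 ± 0.08 in DP (adjusted p = 0.000539, both by edgeR's quasi-likelihood test with Benjamini-Hochberg adjustment), and a large part of the transcript count remained. That test and adjustment over all genes tested hold for every adjusted p of a gene below unless another is named, and a gene is called at an adjusted p under 0.05. The stage labels were checked against markers: all 9 DP markers, Rag1 and Cd8a among them, were lower in CD4 WT than in DP WT, and all 7 mature CD4 markers were higher. Libraries 1 and 2 of DP WT stood apart with 0.844 and 0.273 CPM of Xist, against 189.6 to 601.2 CPM in the other 10 libraries, while the Y-linked Ddx3y was present in all 12 (40.34 to 127 CPM).

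**Figure D1:**
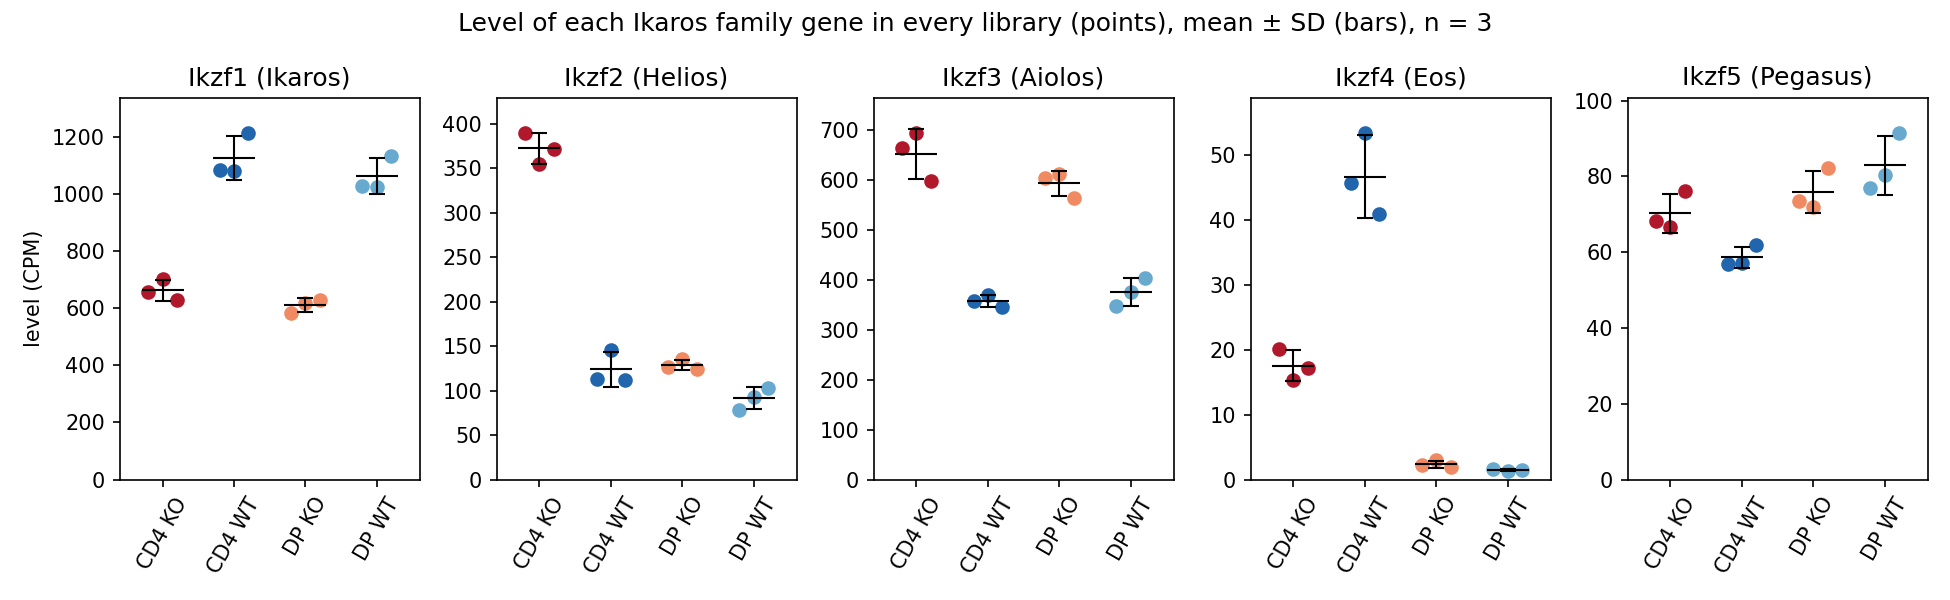
Level of each Ikaros family gene in each of the 12 libraries, in CPM on a linear axis that starts at 0, with CD4 KO, CD4 WT, DP KO and DP WT from left to right. Points are libraries, and bars with whiskers give the mean and SD of 3 libraries. Ikzf1 sits lower and Ikzf3 higher in KO at both stages, Ikzf2 is highest in CD4 KO (355.2 to 390.3 CPM), and Ikzf4 is near the bottom of its axis in both DP groups.

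Loss of Satb1 went with a shift from Ikaros towards Helios and Aiolos at both stages. Ikzf1 was lower, and Ikzf2 and Ikzf3 were higher, in KO cells of either stage. Ikzf4 was 2.66-fold lower in CD4 KO than in CD4 WT, and in DP cells it was barely expressed and not called. All 5 members were called in CD4, 3 of them higher and 2 lower, where 39.5% of the 17316 genes tested were called, 20.9% higher and 18.6% lower. In DP, 3 members were called, 2 higher and 1 lower, where 30.8% of the 16776 genes tested were called, 16.7% higher and 14.1% lower. Without DP WT libraries 1 and 2, the number of genes called in DP was 1907 in place of 5167. These shares are large, so a call alone sets no gene apart in these data. In bulk RNA, fewer cells that express a gene and less RNA per cell cannot be told apart.

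Ikzf1, the founding member and a tumour suppressor of T cells, had 655.2, 702.6 and 628.3 CPM in the CD4 KO libraries, against 1084, 1080 and 1214 CPM in the CD4 WT libraries. In DP it had 581.3, 618.7 and 627.5 CPM in KO libraries, against 1026, 1025 and 1134 CPM in WT libraries. Every KO library lay below every WT library of its stage, and the group ranges did not overlap. How many of all genes show such ranges was not counted, so non-overlap alone sets no member apart, here or below. The log2 fold change was -0.77 ± 0.08 in CD4 (SE; adjusted p = 6.01e-05) and -0.79 ± 0.07 in DP (adjusted p = 3.84e-05). These sizes were larger than those of 76.8% of all genes tested in CD4 and 79.7% in DP. The change in CD4 minus that in DP was 0.04 ± 0.10 on the log2 scale (adjusted p = 0.83).

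Ikzf3 encodes Aiolos, which binds the same core motif and can pair with Ikaros. It had 662.7, 693.7 and 596.4 CPM in CD4 KO libraries, against 356.5, 369.1 and 345.9 CPM in CD4 WT libraries. In DP it had 602.3, 611.5 and 563.3 CPM in KO libraries, against 347.9, 374.4 and 403.7 CPM in WT libraries. The groups did not overlap at either stage, with KO above WT. Ikzf3 was 1.82-fold higher in CD4 KO (log2 0.87 ± 0.08, adjusted p = 2.36e-05) and 1.59-fold higher in DP KO (log2 0.67 ± 0.08, adjusted p = 0.000194). The change in CD4 minus that in DP was 0.21 ± 0.10 (adjusted p = 0.161).

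Ikzf2 encodes Helios. Its CD4 KO libraries had 390.3, 355.2 and 372.1 CPM, against 113.4, 146.3 and 111.9 CPM in the CD4 WT libraries. In DP it had 126.6, 135.8 and 124.3 CPM in KO libraries, against 78.64, 92.87 and 103.1 CPM in WT libraries. The CD4 KO libraries lay far above all others, and DP KO lay above DP WT without overlap. Ikzf2 was 3.01-fold higher in CD4 KO (log2 1.59 ± 0.11, adjusted p = 6.28e-06), a larger change than that of 92.4% of genes tested. In DP KO it was 1.42-fold higher (log2 0.51 ± 0.10, adjusted p = 0.00401). Without DP WT libraries 1 and 2 the DP change was 0.32 on the log2 scale and was no longer called (adjusted p = 0.126). The rise in CD4 exceeded that in DP by 1.09 ± 0.16 on the log2 scale (adjusted p = 0.000155).

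Ikzf4 encodes Eos, a partner of Foxp3 in regulatory T cells. It had 20.14, 15.37 and 17.2 CPM in CD4 KO libraries, against 45.78, 53.47 and 40.88 CPM in CD4 WT libraries. Every CD4 KO library lay below every CD4 WT library, and the log2 fold change was -1.41 ± 0.13 (adjusted p = 3.22e-05), larger in size than that of 90.3% of genes tested. In DP it was close to silent, with 2.283, 2.932 and 1.894 CPM in KO libraries (139, 160 and 82 counts), against 1.643, 1.364 and 1.516 CPM in WT libraries (72, 65 and 34 counts). The DP KO libraries lay above the DP WT libraries without overlap, and the log2 difference of 0.67 ± 0.24 was not called (adjusted p = 0.0671). It was called without DP KO library 3 (log2 0.82, adjusted p = 0.0292), and in 1 model over all 12 libraries (log2 0.66, adjusted p = 0.0163). The change in CD4 minus that in DP was -2.07 ± 0.24 (adjusted p = 2.78e-05).

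Ikzf5, the divergent member, moved least. It had 68.18, 66.55 and 76.22 CPM in CD4 KO libraries, against 56.88, 57.13 and 61.9 CPM in CD4 WT libraries. In DP it had 73.52, 72.04 and 82.23 CPM in KO libraries, against 76.88, 80.3 and 91.56 CPM in WT libraries. The CD4 groups did not overlap, and the DP groups did. The log2 fold change was 0.26 ± 0.07 in CD4 (adjusted p = 0.0185) and -0.12 ± 0.09 in DP (adjusted p = 0.359). The CD4 call was lost without CD4 WT library 1 (adjusted p = 0.07) and without CD4 WT library 2 (adjusted p = 0.0694). The change in CD4 minus that in DP was 0.39 ± 0.12 (adjusted p = 0.0241), and this call was lost when any of 6 libraries was left out: DP KO 1 or 2, DP WT 3, CD4 KO 3, or CD4 WT 1 or 2.

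Across the interaction test, which sets the 2 KO effects against each other in 1 model, 3 members were called, 2 higher and 1 lower in CD4 than in DP. Of the 18431 genes tested, 27.8% were called, 14.4% higher and 13.4% lower. Satb1 itself was called, with a change in CD4 minus that in DP of -0.559 ± 0.105 (adjusted p = 0.00131). Without DP WT libraries 1 and 2, 3341 genes were called in place of 5116.

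**Figure D2:**
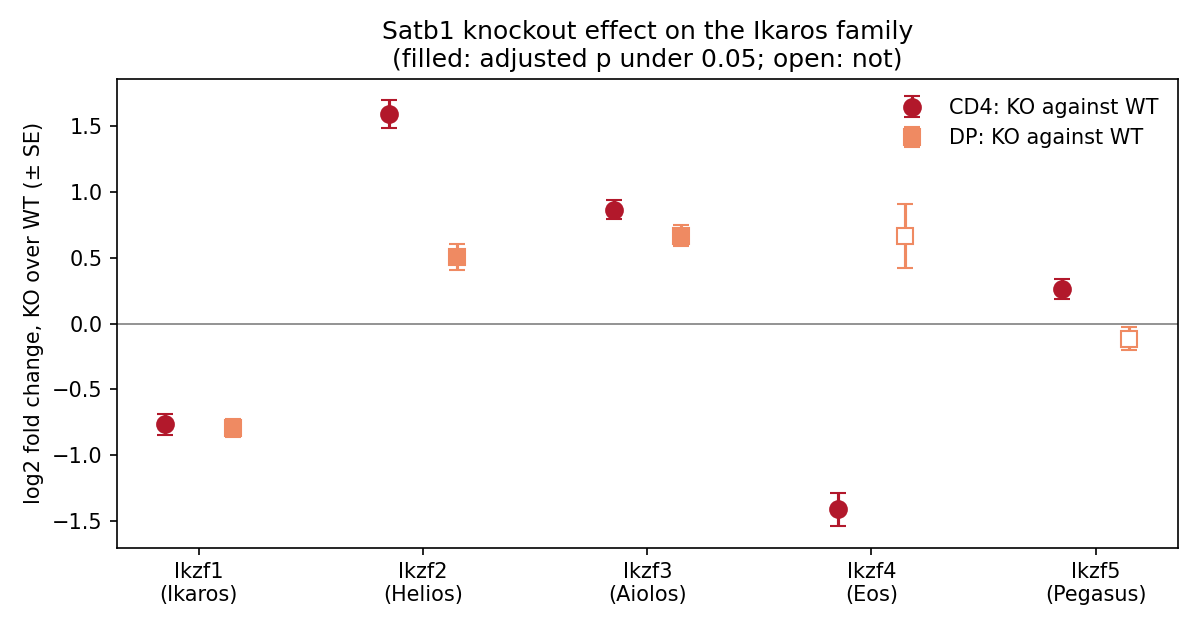
Log2 fold change of each Ikaros family gene in KO against WT, with CD4 and DP side by side, and whiskers of 1 SE from edgeR's quasi-likelihood fit of 3 against 3 libraries. Ikzf1 falls by about the same amount at both stages (-0.77 in CD4, -0.79 in DP), while Ikzf4 is at -1.41 in CD4 and 0.67 in DP.

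The same libraries show how each member differs between stages. In WT cells, Ikzf4 differed most among the members: it was 31.0-fold higher in CD4 WT than in DP WT (log2 4.95 ± 0.15, adjusted p = 5.63e-09), more than 99.3% of genes tested. Ikzf2 was higher in CD4 WT (log2 0.44 ± 0.13, adjusted p = 0.0137) and Ikzf5 was lower (log2 -0.50 ± 0.08, adjusted p = 0.000466). Ikzf1 (log2 0.08, adjusted p = 0.385) and Ikzf3 (log2 -0.08, adjusted p = 0.407) were not called. So 3 members were called, 2 higher and 1 lower, where 55% of 17369 genes were called, 28% higher and 27.1% lower. Without DP WT libraries 1 and 2, the Ikzf2 difference was 0.27 and was not called (adjusted p = 0.243), and the Ikzf1 difference was -0.008 (adjusted p = 0.961).

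In KO cells, Helios and Eos were the members that differed between stages. Ikzf2 was 2.93-fold higher in CD4 KO than in DP KO (log2 1.55 ± 0.07, adjusted p = 1.48e-05), and Ikzf4 was 7.49-fold higher (log2 2.90 ± 0.19, adjusted p = 4.52e-05). Ikzf1 (log2 0.14 ± 0.07, adjusted p = 0.189), Ikzf3 (adjusted p = 0.185) and Ikzf5 (log2 -0.09, adjusted p = 0.497) were not called. The 2 called members were higher, where 21.7% of 16910 genes were called, 13.9% higher and 7.82% lower. With the replicate number as a block, 6420 genes were called in place of 3671, and Ikzf3 was called as higher in CD4 KO (log2 0.15, adjusted p = 0.0202). Without CD4 KO library 1, CD4 KO library 2 or DP KO library 1 the count of genes was 2212, 2251 or 2392. These stage comparisons share libraries with the KO comparisons and are no independent view of them.

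Divided by exon length, so that members can be set against each other, Ikzf1 led in every group. Its level was 103.6 CPM per kilobase in CD4 KO and 176.2 in CD4 WT, and 95.3 in DP KO against 166.1 in DP WT. Ikzf3 came next, with 55.0 CPM per kilobase in CD4 KO and 30.2 in CD4 WT, and 50.1 in DP KO against 31.7 in DP WT. The order then was Ikzf5, Ikzf2 and Ikzf4 in CD4 WT and in both DP groups. In CD4 WT the levels of Ikzf5 and Ikzf2 overlapped between libraries and their order is not settled by these data. In CD4 KO, Ikzf2 at 34.5 CPM per kilobase stood above Ikzf5 at 15.4, and Ikzf4 was last at 2.22.

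Of the summed family level per length, Ikzf1 made up 49.1% ± 1.13 in CD4 KO and 74.4% ± 2.01 in CD4 WT (SD, n = 3 each). In DP its share was 54.7% ± 1.21 in KO and 74.0% ± 0.835 in WT. Ikzf3 made up 26.1% ± 1.01 in CD4 KO and 12.8% ± 0.882 in CD4 WT, and 28.7% ± 1.46 in DP KO against 14.1% ± 0.384 in DP WT. Ikzf2 made up 16.4% ± 1.13 in CD4 KO and 4.87% ± 0.855 in CD4 WT, and 6.86% ± 0.273 in DP KO against 3.77% ± 0.317 in DP WT. The share is a ratio within a library, which no scaling between libraries can move.

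**Figure D3:**
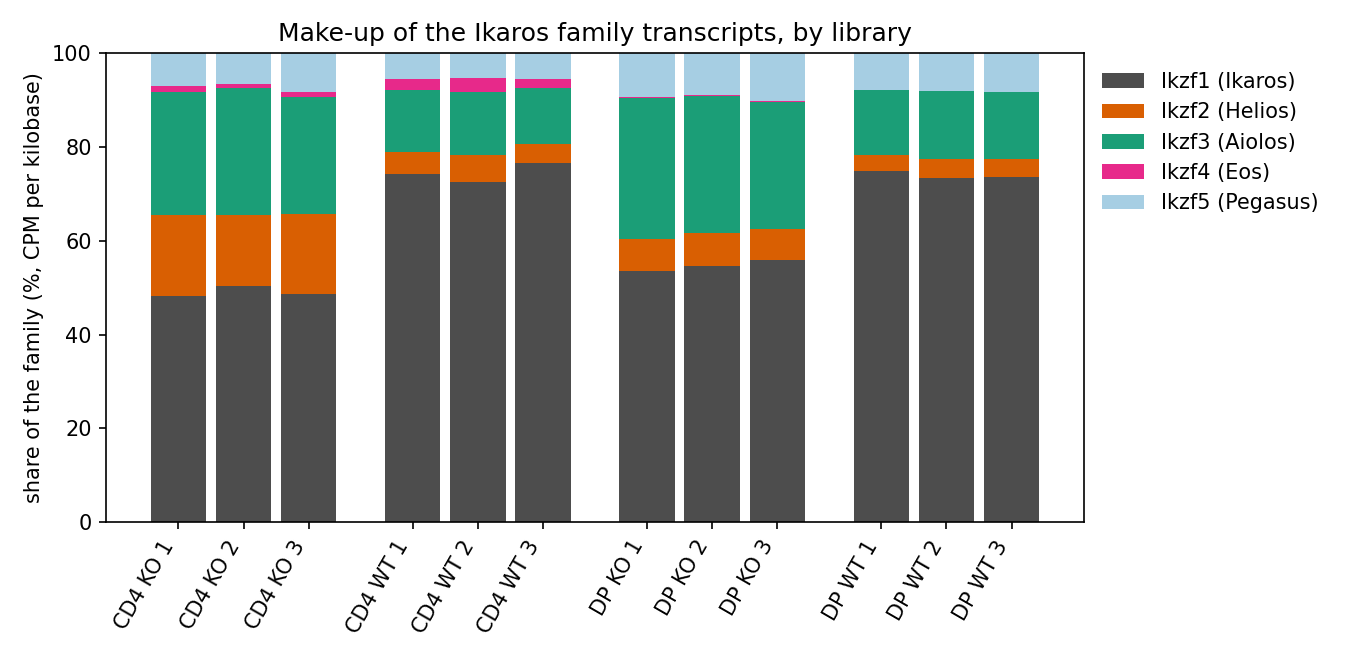
Share of each gene in the summed Ikaros family level per exon length, in percent, as 1 stacked bar for each of the 12 libraries (CD4 KO, CD4 WT, DP KO and DP WT from left to right). Ikzf1 takes on average 49.1% in CD4 KO and 74.4% in CD4 WT, and the rest is filled mainly by Ikzf3 and, in CD4 KO, Ikzf2.

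The family as a whole summed to 210.7 ± 8.07 CPM per kilobase in CD4 KO (range 202 to 218) and 236.6 ± 10.4 in CD4 WT (228.5 to 248.3). In DP the sum was 174.2 ± 3.79 in KO (169.9 to 177.2) and 224.6 ± 14.6 in WT (214.2 to 241.3). KO libraries lay below WT libraries at both stages. An exact two-sided permutation test gave p = 0.1 at each stage, the smallest that 3 against 3 libraries allow. The ratio of Aiolos to Ikaros per length was 0.531 ± 0.0169 in CD4 KO and 0.172 ± 0.0162 in CD4 WT, and 0.526 ± 0.0381 in DP KO against 0.191 ± 0.0072 in DP WT. That is 3.09 times the WT ratio in CD4 and 2.76 times in DP, with exact permutation p = 0.1 at each. The ratio of Helios to Eos was 15.7 ± 1.38 in CD4 KO and 1.95 ± 0.111 in CD4 WT (exact permutation p = 0.1), and 41.1 ± 7.12 in DP KO against 45.1 ± 8.57 in DP WT (exact permutation p = 0.5).

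Ikaros family proteins act with the NuRD complex, a nucleosome remodeler and histone deacetylase. In CD4 KO, 7 of 15 NuRD genes were higher and 2 were lower (median log2 fold change 0.154, against 0.002 over all genes). Of all genes tested there, 20.9% were called higher and 18.6% lower. In DP KO, 3 NuRD genes were higher and 2 lower (median 0.016, against 0.007 over all genes), where 16.7% of all genes tested were called higher and 14.1% lower. The DP count of lower genes was 1 without DP KO library 1, DP KO library 2 or DP WT library 3, and 0 without DP WT libraries 1 and 2. Chd3, a remodeler ATPase of NuRD, had the largest change in DP. It averaged 1147 ± 98.2 CPM in CD4 KO and 1524 ± 86.9 in CD4 WT, and 1033 ± 25.7 in DP KO against 189.1 ± 5.68 in DP WT. It was lower in CD4 KO (log2 -0.41 ± 0.08, adjusted p = 0.00392) and 5.50-fold higher in DP KO (log2 2.46 ± 0.07, adjusted p = 4.12e-08). The change in CD4 minus that in DP was -2.86 ± 0.10 (adjusted p = 7.07e-09). Chd4, the alternative ATPase and the one known from thymocytes, was not called at either stage (log2 0.07, adjusted p = 0.521 in CD4; log2 0.02, adjusted p = 0.875 in DP). Mta3, a scaffold subunit, was higher at both stages (log2 0.76 ± 0.07 in CD4, adjusted p = 3.99e-05; log2 0.94 ± 0.08 in DP, adjusted p = 3.17e-05).

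Of 12 further partners in the SWI/SNF, SIN3 and CtBP complexes, 2 were higher and 2 lower in CD4 KO (median 0.067). In DP KO, 3 were lower (median -0.119). These counts stand beside 39.5% of all genes tested called in CD4 and 30.8% in DP. With library totals in place of TMM factors, 4 were higher in CD4 KO. Smarca4, the SWI/SNF ATPase Brg1, was higher in CD4 KO with a mean of 371.6 ± 13.2 CPM, against 305.4 ± 23.8 CPM in CD4 WT (log2 0.28 ± 0.07, adjusted p = 0.0131). In DP it averaged 421.1 ± 13.9 CPM in KO, against 690.1 ± 18.2 CPM in WT (log2 -0.70 ± 0.07, adjusted p = 4.89e-05). The difference between the stages was 1.00 ± 0.09 (adjusted p = 5.22e-06). Sin3b, a co-repressor scaffold, was lower in DP KO (log2 -0.90 ± 0.08, adjusted p = 4.22e-05) and not called in CD4 (log2 -0.14 ± 0.06, adjusted p = 0.106). Smarca2, the alternative SWI/SNF ATPase, was lower in CD4 KO (log2 -0.95 ± 0.08, adjusted p = 1.93e-05), and Smarcc1, a core subunit, was higher (log2 0.62 ± 0.07, adjusted p = 6.67e-05).

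A further 11 genes belong to the cereblon ligase, or to the kinase CK2 and phosphatase PP1 that act on Ikaros. The ligase targets Ikaros and Aiolos for destruction when cells are given drugs such as lenalidomide. These genes moved little: 2 were higher in CD4 KO (median 0.126), or 5 with library totals in place of TMM factors. In DP KO, 1 was higher (median -0.008). The share of all genes tested that was called was 39.5% in CD4 and 30.8% in DP. The 2 in CD4 were Ddb1, the ligase adaptor (log2 0.37 ± 0.07, adjusted p = 0.0017), and Cul4a, its scaffold (log2 0.18 ± 0.06, adjusted p = 0.0378). The Cul4a call was lost when any 1 of the 6 CD4 libraries was left out. The 1 in DP was Crbn, cereblon itself (log2 0.23 ± 0.08, adjusted p = 0.0467), and its call was lost in 10 of 15 alternatives. Among them were leaving out any 1 of DP KO libraries 1 to 3 or DP WT libraries 1 or 2, DESeq2 size factors and the replicate block (adjusted p = 0.0509). In CD4, Crbn had a log2 fold change of -0.23 ± 0.08 and was not called (adjusted p = 0.056), and with the replicate block it was called as lower (adjusted p = 0.0268).

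**Figure D4:**
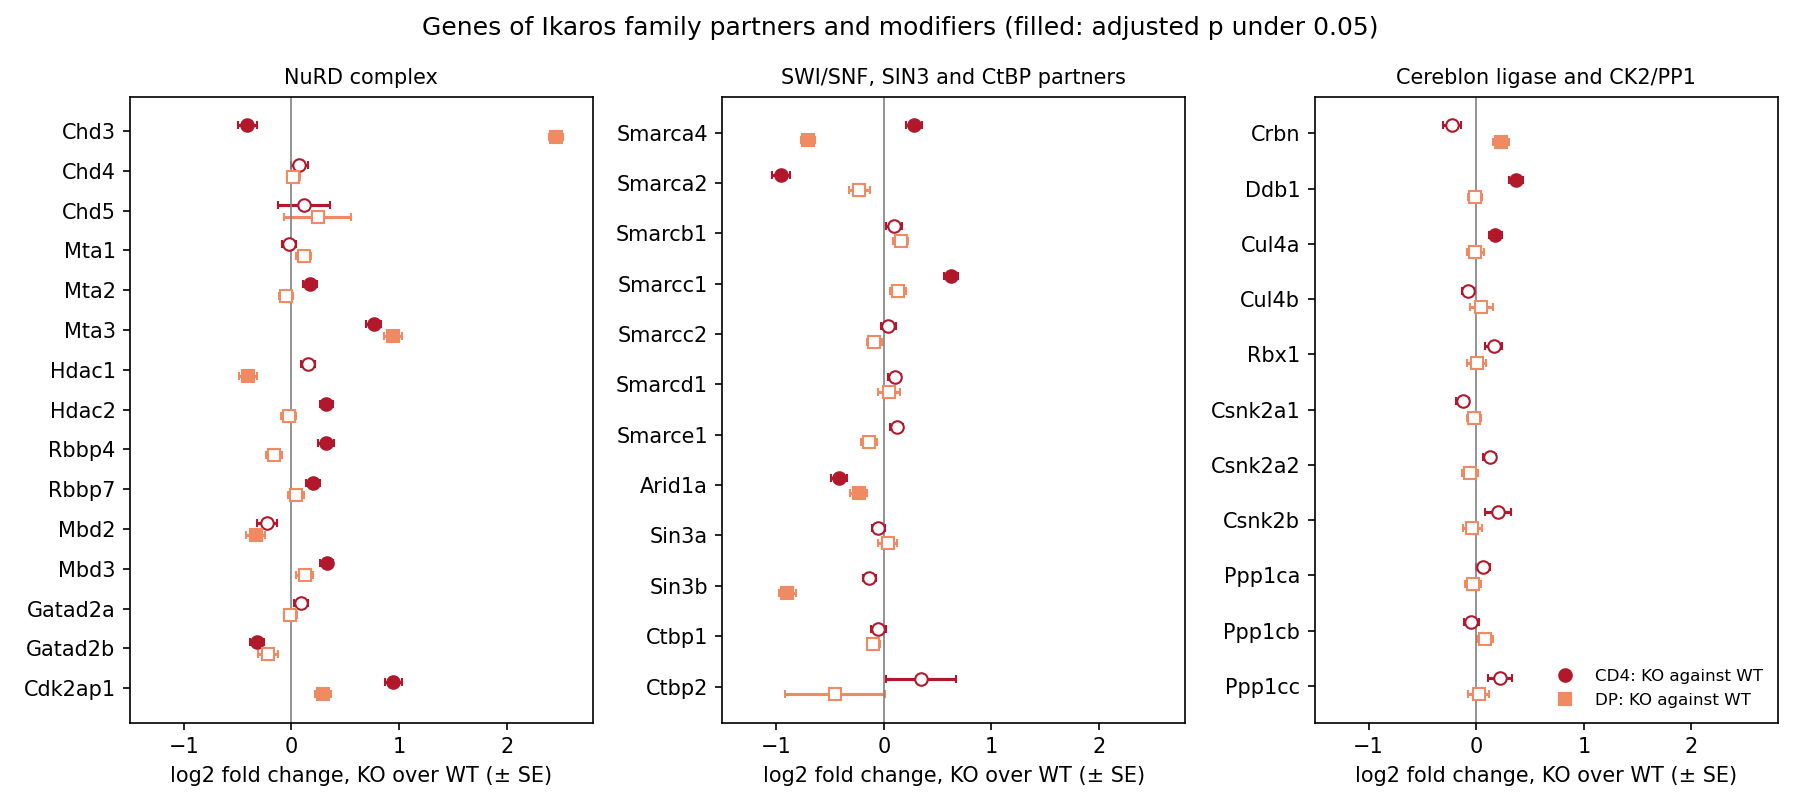
Log2 fold change in KO against WT for the genes of the NuRD complex, of the SWI/SNF, SIN3 and CtBP partners, and of the cereblon ligase with CK2 and PP1, with CD4 above DP for each gene, whiskers of 1 SE and filled points for called genes. Chd3 stands apart from every other gene plotted, at 2.46 in DP and -0.41 in CD4.

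Of 18 genes described as Ikaros family targets, 11 were higher and 3 lower in CD4 KO (median 0.861). In DP KO, 3 of the 17 tested were higher and 9 lower (median -0.51). Among all genes tested, 20.9% were called higher and 18.6% lower in CD4, and 16.7% higher and 14.1% lower in DP. Of the 11 targets called at both stages, 6 were higher in CD4 KO and lower in DP KO, 3 were higher at both and 2 were lower at both. Dntt, Rag1, Ptcra, Cd8a and Cd8b1 also belong to the 9 DP markers, so the target and stage lists overlap. Among those 9 markers, 8 were higher in CD4 KO and 7 lower in DP KO. The part of stage in the target pattern was not tested. Dntt, the terminal transferase, averaged 604.7 ± 73.3 CPM in CD4 KO and 146.4 ± 11.8 in CD4 WT (log2 2.05 ± 0.10, adjusted p = 1.49e-06), and 1228 ± 70.2 in DP KO against 2008 ± 182 in DP WT (log2 -0.70 ± 0.08, adjusted p = 0.000247). Rag1 of the V(D)J recombinase (log2 1.89 ± 0.18 in CD4, -1.26 ± 0.08 in DP), Ptcra, the pre-T cell receptor alpha chain (1.19 ± 0.17 in CD4, -2.53 ± 0.15 in DP) and Gfi1, a repressor (1.41 ± 0.08 in CD4, -0.37 ± 0.07 in DP) were likewise higher in CD4 KO and lower in DP KO, all called at both stages. The Gfi1 call in DP was lost without DP WT libraries 1 and 2 (adjusted p = 0.0563).

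Il2ra, the interleukin 2 receptor alpha chain CD25, was higher at both stages. It averaged 238.8 ± 53.8 CPM in CD4 KO and 35.18 ± 5.62 in CD4 WT (log2 2.76 ± 0.17, adjusted p = 4.71e-06), and 406.6 ± 49.2 in DP KO against 12.45 ± 5.58 in DP WT (log2 5.07 ± 0.28, adjusted p = 1.73e-06). Myc, a growth regulator, was also higher at both (log2 0.65 ± 0.11 in CD4, adjusted p = 0.00101; 2.02 ± 0.12 in DP, adjusted p = 3.51e-06). Bcl2, a survival factor, was lower in CD4 KO at 75.72 ± 7.76 CPM, against 309.3 ± 34.7 CPM in CD4 WT (log2 -2.03 ± 0.11, adjusted p = 1.76e-06), and was not called in DP (log2 -0.20 ± 0.13, adjusted p = 0.301).

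The cell types that carry Helios and Eos were read from their markers. Of 10 regulatory T cell markers, 4 were higher and 4 lower in CD4 KO (median 0.239), where 39.5% of all genes tested were called. In DP KO, where 30.8% of all genes were called, 3 of these markers were higher and 2 lower (median 0.182). The lower count was 1 without DP WT library 1 or 2. Foxp3, which defines these cells, averaged 32.0 ± 10.5 CPM in CD4 KO and 28.4 ± 3.05 in CD4 WT (log2 0.17 ± 0.20, adjusted p = 0.532). In DP it averaged 1.12 ± 0.239 CPM in KO, against 0.504 ± 0.321 CPM in WT (log2 1.07 ± 0.46, adjusted p = 0.114). In CD4, where Ikzf2 was 3.01-fold higher and Ikzf4 lower, the Foxp3 difference did not pass the test. Its libraries ranged from 25.83 to 44.12 CPM in CD4 KO and from 24.85 to 30.2 CPM in CD4 WT. The part of regulatory T cells in the Ikzf2 and Ikzf4 levels was not tested. Il2ra and Nrp1, the neuropilin of thymic regulatory T cells (log2 0.96 ± 0.15, adjusted p = 0.000738), were higher in CD4 KO, while the receptors Tnfrsf4 (log2 -1.49 ± 0.21, adjusted p = 0.000476) and Tnfrsf18 (log2 -1.02 ± 0.13, adjusted p = 0.00019) were lower. In DP, Nrp1 was lower (log2 -0.89 ± 0.11, adjusted p = 0.000346).

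Agonist signalling and deletion is the setting in which Helios is induced in thymocytes. Of 10 genes of this setting, 1 was higher and 7 lower in CD4 KO (median -0.378), where 39.5% of all genes tested were called. In DP KO, where 30.8% of all genes were called, 2 of the 10 were higher and 2 lower (median -0.355). The lower count was 1 without DP KO library 1. Pdcd1, the receptor PD-1, was higher at both stages (log2 2.27 ± 0.13 in CD4, adjusted p = 2.76e-06; 1.99 ± 0.21 in DP, adjusted p = 0.000115). Cd5, whose level tracks receptor signal strength, was lower at both (log2 -2.05 ± 0.15 in CD4, adjusted p = 9.78e-06; -2.05 ± 0.14 in DP, adjusted p = 6.35e-06). Bcl2l11, the death factor Bim, was lower in CD4 KO (log2 -0.37 ± 0.07, adjusted p = 0.00255) and higher in DP KO (log2 0.88 ± 0.15, adjusted p = 0.00171).

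Markers of stage and of proliferation moved with the CD4 results, where 39.5% of all genes tested were called. The 9 DP markers summed to 2323 to 2822 CPM in CD4 KO and 542.4 to 814.1 CPM in CD4 WT, with 8 higher and none lower. The 7 mature CD4 markers summed to 1093 to 1296 CPM in CD4 KO and 2008 to 2197 CPM in CD4 WT, with 4 lower. The 10 proliferation genes summed to 2580 to 3269 CPM in CD4 KO and 975 to 1337 CPM in CD4 WT, with all 10 higher. In DP, the DP markers summed to 6935 to 7200 CPM in KO and 11850 to 12930 CPM in WT. Their part in the levels of the 5 members was not tested. Markers of B cells (21.36 to 31.6 CPM in CD4 KO, 8.043 to 19.83 CPM in CD4 WT, 1 of 7 tested higher) and of myeloid and dendritic cells (17.87 to 50.12 CPM in CD4 KO, 21.85 to 50.16 CPM in CD4 WT, 0 of 7 called) were low, with Ighm, an antibody heavy chain gene, at 0 in all libraries. Erythroid markers (49.19 to 220.4 CPM in CD4 KO, 23.39 to 137.9 CPM in CD4 WT) and stroma markers (168.7 to 187.2 CPM in CD4 KO, 194 to 214.9 CPM in CD4 WT) had no member called in CD4. Most of the stroma sum was Pecam1 alone (172.2 ± 9.67 CPM in CD4 KO, 196.2 ± 11.6 CPM in CD4 WT). In DP KO, Pecam1 was higher (log2 0.32 ± 0.07, adjusted p = 0.00584) and Epcam lower (log2 -1.84 ± 0.27, adjusted p = 0.000778).

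Markers of other T cell kinds moved more, beside 39.5% of all genes tested called in CD4 and 30.8% in DP. The 6 gamma-delta and innate-like markers summed to 527.6 to 684.7 CPM in CD4 KO and 70.91 to 121.2 CPM in CD4 WT, with 3 of 5 tested higher and 1 lower. In DP they summed to 1153 to 1423 CPM in KO and 767.1 to 799.7 CPM in WT, with 3 of 4 tested higher. Trdc, the gamma-delta receptor constant gene, was at 0 in all libraries. Maf, a transcription factor of innate-like and effector T cells, averaged 167.2 ± 18.6 CPM in CD4 KO and 15.5 ± 2.56 in CD4 WT (log2 3.43 ± 0.13, adjusted p = 5.75e-07), and 324.5 ± 50.9 in DP KO against 3.31 ± 0.689 in DP WT (log2 6.65 ± 0.19, adjusted p = 4.34e-08). Zbtb16, the factor PLZF of innate-like T cells, was lower in CD4 KO (log2 -3.84 ± 0.50, adjusted p = 0.000256). The 4 NK and ILC markers summed to 6.332 to 7.754 CPM in CD4 KO and 17.85 to 38.27 CPM in CD4 WT, with 2 of 3 tested lower, Klrb1c among them (log2 -3.52 ± 0.36, adjusted p = 6.55e-05). In DP, 1 of 3 was higher. The 5 CD8 lineage markers summed to 497.5 to 614.6 CPM in CD4 KO and 262.6 to 398.2 CPM in CD4 WT, with 1 higher and 1 lower, and to 2384 to 2391 CPM in DP KO and 3602 to 4313 CPM in DP WT, with 1 higher and 3 lower. Their part in the levels of the 5 members was likewise not tested.

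Genes close to a member were looked at because strand is not given for the counting. Within 50 kb, Ikzf2 had no neighbour, Ikzf1 had 3, Ikzf3 had 8, Ikzf4 had 11 and Ikzf5 had 4, predicted genes included. Exons overlapped in only 2 cases among these, by 37 bases between Ikzf4 and a predicted gene on the other strand that stayed at or below 0.0757 CPM on average, and by 81 bases between Ikzf5 and Pstk on the other strand. Pstk, a selenocysteine synthesis kinase, averaged 11.2 ± 0.819 CPM in CD4 KO and 9.47 ± 0.577 in CD4 WT (adjusted p = 0.12). Suox, a sulfite oxidase whose span ends 216 bases from Ikzf4 on the same strand, was lower in CD4 KO at 22.5 ± 0.799 CPM, against 33.6 ± 2.02 CPM in CD4 WT (log2 -0.58 ± 0.08, adjusted p = 0.000464). It was not called in DP (log2 0.10 ± 0.11, adjusted p = 0.557). Among the 7 tested neighbours of Ikzf4, 1 was higher and 2 lower in CD4 KO, and 2 higher and 1 lower in DP KO. Over all genes tested, 39.5% were called in CD4 and 30.8% in DP. Acadsb, 83 bases from Ikzf5 on the other strand, was higher in DP KO (log2 0.45 ± 0.09, adjusted p = 0.00383), where Ikzf5 was not called. Fignl1, a recombination factor 27358 bases from Ikzf1, was higher in CD4 KO at 52.6 ± 2.55 CPM, against 18.0 ± 4.14 CPM in CD4 WT (log2 1.56 ± 0.15, adjusted p = 4.65e-05), where Ikzf1 was lower.

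The genes whose levels ran most like each member were found by Pearson correlation of log2(CPM + 0.5) over the 12 libraries. The libraries form 4 groups of 3, so these values mostly describe shared group means. Among the genes most like Ikzf1 were Il4ra (r = 0.982) and Dgkd (r = 0.981). Il4ra, the interleukin 4 receptor alpha chain, had 74.3 ± 6.86 CPM in CD4 KO and 230 ± 14.9 in CD4 WT, and 67.4 ± 5.31 in DP KO against 206.3 ± 0.531 in DP WT. Ikzf3 was matched by Prdm11 (0.992), Scly (0.987) and Apobec3 (0.982), and Ikzf2 by Xdh (0.965), Hip1r (0.963) and Itga9 (0.96). Ikzf4 was matched by Bcl3 (0.996), Gimap4 (0.996) and Hs3st3b1 (0.995), and Ikzf5 by Cep76 (0.984), Fam83d (0.983) and Ddx3x (0.981). Bcl3, a nuclear cofactor of NF-kB, had 11.7 ± 1.27 CPM in CD4 KO and 29.9 ± 3.42 in CD4 WT, and under 1 CPM on average in both DP groups.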

How the data were processed

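Per the labels' protocols, RNA of sorted thymocytes was extracted with TRIzol, selected for poly(A) and read from both ends for 150 bases. The authors deposited raw counts for each gene in 2 tables, one of DP and one of CD4 libraries. Subread 1.0.1, R 4.1.5, DESeq2 and the build mm10 appear in the submitters' processing notes without a stated use. The sources used here name no aligner, no strand setting and no rule for multiply mapped reads. Libraries were placed in groups by title, and every column of values was used.

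Counts were tested with edgeR 4.0.16 in R 4.3.3 (quasi-likelihood test, TMM, default low-count filter with a minimum count of 10, Benjamini-Hochberg over all genes tested), after the script was tested on simulated data. Each KO comparison used the 6 libraries of 1 table, stage comparisons 6 libraries of both, and the interaction all 12. CPM were scaled by TMM over the 12 libraries, and levels per length used the exon length in the DP table. SE is the log2 fold change over the square root of F. A count of 3 is 0.0465 to 0.134 CPM, a floor that covers counting error only. Figures used matplotlib 3.10.9 and permutations SciPy 1.17.1 in Python 3.11.15.

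The members and gene lists were chosen with earlier results of these data known. The rule named the 5 members, Satb1, up to 4 genes per list with the smallest adjusted p in a KO comparison, defining markers, neighbours within 50 kb, and the 3 most alike genes per member whose mean log2 CPM reached 2; Chd4 was chosen after its values were seen. Not every gene this rule gave is reported here. Replicate numbers match the labelled batch, so they pair libraries: deviations of same-numbered libraries correlated between -0.045 and 0.668, with 10 of 12 pairs over 0.1. No replicate pair looked like a repeat deposit of 1 library (chi-square per degree of freedom 15.2 to 50.8). Alternatives were DESeq2 1.42.0 size factors and Wald test, limma-voom 3.58.1, no filter, a minimum mean count of 10, 1 model over 12 libraries, the replicate block, each library left out, DP WT libraries 1 and 2 left out, and, chosen after seeing the data, library totals without TMM.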

Additional observations from a re-analysis of the deposited data

Results flagged for a closer look

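The KO effect differed between the 2 stages for 3 members, by the interaction term of edgeR's quasi-likelihood model over all 12 libraries. For Ikzf2 the effect in CD4 minus that in DP was 1.09 on the log2 scale (adjusted p = 0.000155), with all 3 same-numbered pairs higher in KO at each stage. For Ikzf4 it was -2.07 (adjusted p = 2.78e-05), with all 3 CD4 pairs lower in KO, and DP levels of 1.364 to 2.932 CPM behind it. For Ikzf5 it was 0.39 (adjusted p = 0.0241), the smallest and least stable of the 3. The transcript of Satb1 itself fell further in CD4 than in DP, by -0.559 on the same scale (adjusted p = 0.00131). The part of this unequal fall in the differences of the 3 members was not tested.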

How the results depend on the processing

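Of 390 values of the members under alternatives, 370 kept direction and side of the threshold, 11 lost a call, 3 gained one and 6 changed sign, all 6 of them Ikzf1 values that were not called. Without DP WT libraries 1 and 2, which leaves 1 DP WT library assumed to vary like the others, the DP KO count was 1907 genes in place of 5167, the interaction count 3341 in place of 5116, Ikzf2 in DP KO 0.322, and in CD4 WT against DP WT Ikzf2 0.269 and Ikzf1 -0.008. In 1 model over 12 libraries Ikzf4 in DP KO was 0.66 and called. With no filter, the interaction was 0.351 for Ikzf5 (adjusted p = 0.0535) and -0.001 for Ikzf1. With the replicate block, the CD4 KO against DP KO count was 6420 in place of 3671 (53.6% of calls higher in place of 64%) and Ikzf3 there was 0.154 and called; no other call of a member changed. Among the genes of the 6 lists of partners, targets, agonist signalling and regulatory T cells, Arid1a and Crbn lost their DP calls with the block, and Crbn (adjusted p = 0.0268), Hdac1 (0.039), Mbd2 (0.00746), Ppp1cc (0.0101), Cd8a (0.0435) and Nr4a1 (0.0272) gained one in CD4, so that 8 NuRD genes were higher and 3 lower there. Leaving out 1 library at a time, Ikzf4 in DP KO ranged from 0.5 to 0.819, Ikzf5 in CD4 KO from 0.21 to 0.315, the CD4 KO against DP KO count from 2212 to 3951, and the interaction from -0.041 to 0.06 for Ikzf1 and from 0.286 to 0.418 for Ikzf5. Without division by length, the family share of Ikzf1 was 37.3% in CD4 KO, 65.7% in CD4 WT, 43.2% in DP KO and 65.9% in DP WT, that of Ikzf3 was 36.7%, 20.9%, 42.0% and 23.3% in the same order, that of Ikzf2 21.0%, 7.24%, 9.15% and 5.66%, and that of Ikzf5 3.98%, 3.42%, 5.39% and 5.13%. The causes were not tested, beyond the fewer libraries. Of the list counts and list genes followed, 1465 values kept, 32 moved and 48 lost a call. Depth limits Ikzf4 in DP most, at 34 to 160 counts.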
